A study of Mus musculus with 11 samples.

Results

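The genes described here are 39 interferon-stimulated genes of mouse skeletal muscle, chosen by symbol as antiviral effectors and interferon signalling genes, out of 18269 genes in the deposited expression table. All 39 were in the table. Of these, 37 had at least 1 CPM (counts scaled to 1000000 per library) in at least 3 of the 11 libraries and were tested; Dhx58 and Zbp1 were below that level. None of the 37 passed limma's test after Benjamini-Hochberg adjustment over 13187 genes in any comparison, and the smallest adjusted p was 0.143. Irf7 and Bst2 were the genes farthest below saline in both serum groups, and a single library given young serum had more than 3 times the next highest level of Iigp1, Irgm2 and Igtp.

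Interferons are cytokines, and cells release those of type I on sensing viral nucleic acid. Type I interferons act through a receptor, the kinases JAK1 and TYK2 and a complex that holds STAT2 and IRF9 and binds the interferon-stimulated response element (ISRE); interferon gamma leads mainly to binding at another element, the gamma-activated site (GAS). The induced proteins block viral entry, translation and replication, or act on the vacuoles of intracellular microbes, and part of the set is expressed at a basal level in uninfected tissue.

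RNA was measured in the tibialis anterior, a fast-fibre muscle of the shin, of C57BL/6 mice aged 21 to 24 months, and samples from young animals are not analysed here. The protocol text names an injury model without giving the injury or the interval to sampling. Animals were injected with saline (4 libraries, numbered 2, 3, 4 and 6), with serum of young animals (4 libraries, 1 to 4) or with young serum from which extracellular vesicles (EVs, membrane particles that cells shed) had been removed (3 libraries, 2 to 4). Nothing in the labels says that libraries came from separate animals, so a p-value measures the spread between these libraries, which may be technical. The comparisons ask whether young serum alters expression in old muscle and whether the EVs matter for that; both sera were compared with the same 4 saline libraries, so these comparisons are not independent of each other.

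The spacing of the low values put the depth at 36.1 to 42.0 times 1e+06 reads per library, so 1 CPM stands for 36.1 to 42.0 reads. The 10 markers of skeletal muscle fibres summed to 150490 to 204450 CPM in every library. Saline replicate 4 stood apart: its adipocyte markers summed to 6134 CPM against 376 to 625 in the other saline libraries, and its macrophage markers to 356 CPM against 130 to 235. It was the highest of the 11 libraries for 25 of the 39 interferon-stimulated genes (64.1%), and for 33.8% of all genes tested. Young serum replicate 3 was the highest for 7 of them (17.9%, against 1.21% of all genes), young serum replicate 4 the lowest for 17 (43.6%, against 16.1%) and EV-depleted replicate 3 the lowest for 12 (30.8%, against 12.7%).

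**Figure D1:**
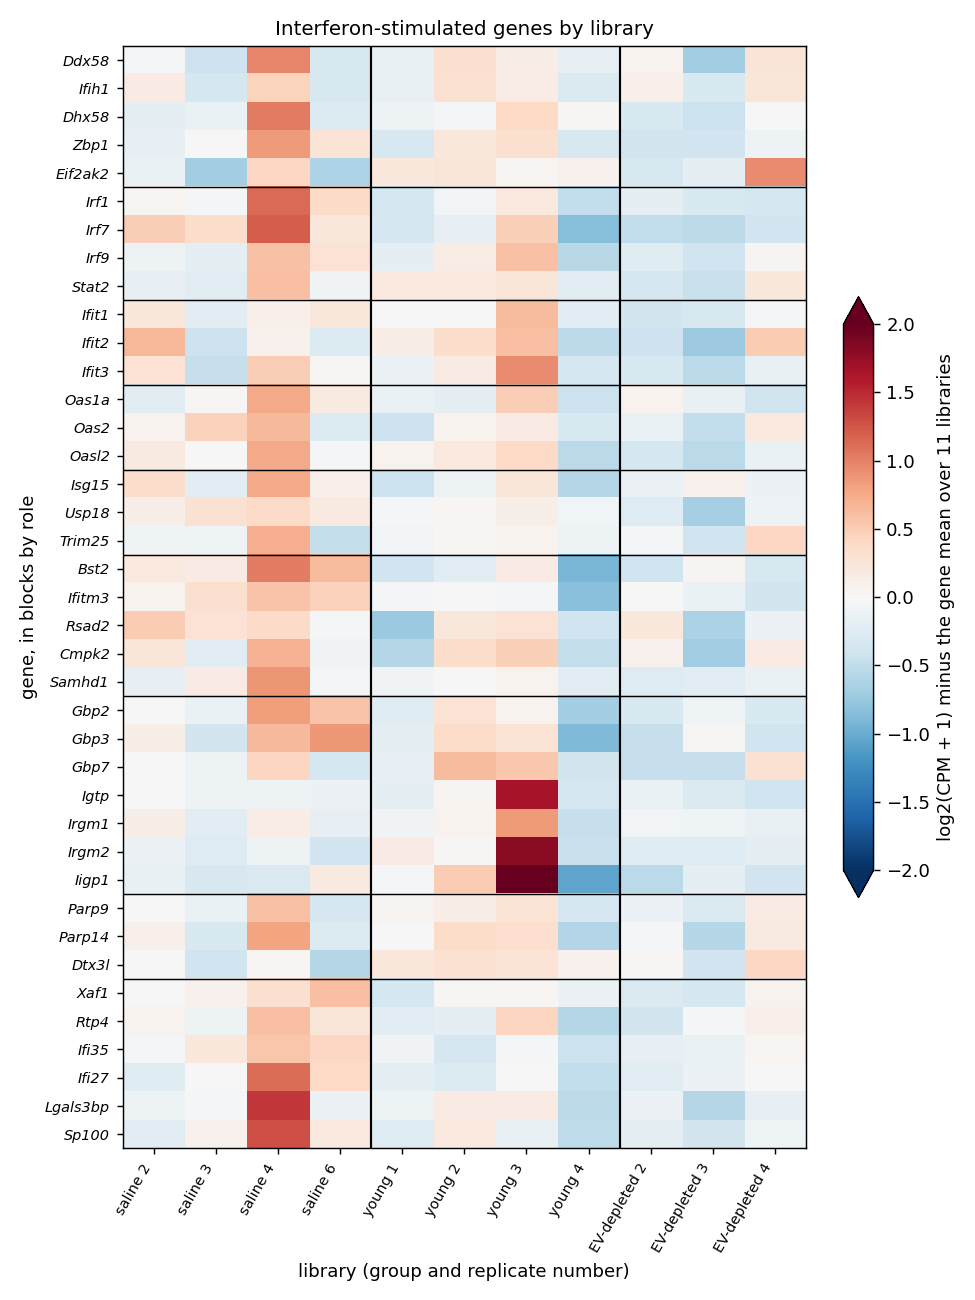
Level of each of the 39 genes (rows, in blocks by role) in each of the 11 libraries (columns), as log2(CPM + 1) minus the mean of that gene over all libraries; red is higher and blue lower than that mean. Saline replicate 4 is red in most rows, young serum replicate 4 blue in most, and young serum replicate 3 is darkest at Igtp, Irgm2 and Iigp1.

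The promoters of 30 of the 39 genes were matched by symbol to RefSeq on GRCm38.p6, each from 250 bases before to 50 after the start site. The letters GAAA, any 2 bases and GAAA again, or on the other strand TTTC, any 2 bases and TTTC (the core of an ISRE), were found in 17 of the 30 (56.7%) and in 3.99% of 27025 genes. The letters TTCNNNGAA (the core of a GAS, the same on both strands) were found in 11 of the 30 (36.7%) and in 9.55% of all genes, and both were found in 7 (23.3%) and 0.614%. The 2 patterns can share bases, and a match is a description of the letters, not evidence of binding. All 6 GTPase genes of the set with a promoter entry held an ISRE core and 3 a GAS core. Neither core was found in the whole entry of Irf7, the gene with the largest difference. The windows of 6 genes are shown as examples that hold a core: Bst2 and Ifitm3, with every serum library below saline; Isg15, the ubiquitin-like modifier; and Igtp, Irgm2 and Irgm1, which were high in 1 library. Each is 5′ to 3′ from 150 bases before to 30 after the start site, with ISRE and GAS cores in capitals.
Bst2: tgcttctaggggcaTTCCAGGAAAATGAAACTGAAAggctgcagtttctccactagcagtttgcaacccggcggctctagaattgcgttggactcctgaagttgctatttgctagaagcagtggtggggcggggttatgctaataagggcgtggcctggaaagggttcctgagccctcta
Ifitm3: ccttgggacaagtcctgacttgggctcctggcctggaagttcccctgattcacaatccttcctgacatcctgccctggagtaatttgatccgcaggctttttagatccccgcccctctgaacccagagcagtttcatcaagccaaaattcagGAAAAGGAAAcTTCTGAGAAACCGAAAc
Isg15: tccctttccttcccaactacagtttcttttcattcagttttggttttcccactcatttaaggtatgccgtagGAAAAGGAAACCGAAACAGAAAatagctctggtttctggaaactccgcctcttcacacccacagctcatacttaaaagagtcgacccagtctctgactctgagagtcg
Igtp: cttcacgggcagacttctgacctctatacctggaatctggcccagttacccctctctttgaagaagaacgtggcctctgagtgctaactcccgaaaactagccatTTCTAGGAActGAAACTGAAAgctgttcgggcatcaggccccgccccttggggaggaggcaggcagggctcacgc
Irgm2: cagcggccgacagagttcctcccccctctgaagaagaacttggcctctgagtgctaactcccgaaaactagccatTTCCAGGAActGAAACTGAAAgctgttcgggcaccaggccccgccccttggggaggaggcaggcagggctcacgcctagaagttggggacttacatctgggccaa
Irgm1: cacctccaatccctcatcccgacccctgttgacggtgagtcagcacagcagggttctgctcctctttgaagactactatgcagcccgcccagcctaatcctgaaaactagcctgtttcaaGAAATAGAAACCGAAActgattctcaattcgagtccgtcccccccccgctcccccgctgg
They lie at chr8:71537443-71537622 on the minus strand, chr7:141010715-141010894 on the minus strand, chr4:156200789-156200968 on the minus strand, chr11:58199406-58199585 on the plus strand, chr11:58214827-58215006 on the plus strand and chr11:48871391-48871570 on the minus strand. In Bst2 a GAS core, TTCCAGGAA, shares bases with the first of 2 ISRE cores, GAAAATGAAA and GAAACTGAAA; they start at -136, -130 and -124. In Ifitm3 the cores GAAAAGGAAA and GAAACCGAAA lie just after the start site, and a GAS core, TTCTGAGAA, runs into the second of them. Isg15 carries 3 overlapping ISRE cores in 1 run, the first starting at -78. In Igtp and Irgm2, neighbours on chromosome 11, a GAS core is followed after 2 bases by the same ISRE core, GAAACTGAAA, and the windows share an identical run of 41 bases starting at -11 in Igtp and -41 in Irgm2. Irgm1 has 2 overlapping ISRE cores and no GAS core in its whole 300-base entry.

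With young serum, 24 of the 37 tested genes were lower than in saline and 13 higher, with a median difference of -0.21 on the log2(CPM + 1) scale against -0.02 over all 13187 genes. No gene of the set passed limma's test (0 of 37, smallest adjusted p 0.180), and neither did any other gene (0.0% of all genes tested). At an unadjusted p under 0.05, 6 of the 37 were lower, namely Irf1, Irf7, Bst2, Ifitm3, Ifi35 and Ifi27, and 1, Dtx3l, was higher; over all genes 11.4% were lower and 10.5% higher by that rule. The 4 young serum libraries lay wholly below the 4 saline libraries for Bst2 and Ifitm3 and wholly above them for Dtx3l, and over all genes such non-overlap was found in 6.08% below and 6.09% above. As shares of the 37, the counts of lower genes were near those of all genes and the counts of higher genes below them. The median was -0.02 without saline replicate 4, where that of all genes was 0.07, and -0.07 without young serum replicate 4, 0.01 without both saline replicates 4 and 6 and 0.07 with array weights, so its sign was not stable. When limma weighted the libraries by their own spread (array weights), 4 of the 37 passed, Ifi35 and Ifitm3 lower and Dtx3l and Eif2ak2 higher. That is a smaller share than over all genes, where 3441 of 13187 passed.

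With EV-depleted serum, 34 of the 37 genes were lower than in saline and 3 higher, with a median of -0.35 against -0.00 over all genes. Again none passed limma's test (0 of 37, smallest adjusted p 0.350; 0.0% of all genes). At an unadjusted p under 0.05, 8 were lower, namely Irf1, Irf7, Oasl2, Usp18, Bst2, Ifitm3, Xaf1 and Ifi35, and 0 higher, against 5.59% lower and 6.49% higher over all genes. In 7 genes the EV-depleted libraries lay wholly below saline (Irf1, Irf7, Oasl2, Usp18, Bst2, Ifitm3 and Igtp) and in 0 wholly above, against 4.03% and 3.39% of all genes. Both counts of lower genes are above the shares over all genes, a difference that was not tested. Without saline replicate 4 the count at an unadjusted p under 0.05 was 3 (Irf7, Usp18 and Bst2) and the median was -0.20, against 0.08 over all genes. The share of all genes under 0.05 in that fit is not given here, so this count cannot be set against it. With array weights 3 of the 37 passed, Irf7, Usp18 and Samhd1, all lower. That is a smaller share than over all genes, where 1794 of 13187 passed.

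Set against both sera together, taken as the average of the 2 serum groups, saline was higher for 30 of the 37 genes, with a median serum minus saline difference of -0.30 against -0.01 over all genes. None of the set passed limma's test, where 2 of all genes did (0.0152%). At an unadjusted p under 0.05, 9 were lower with serum and 0 higher, against 11.5% in each direction over all genes. The 7 serum libraries lay wholly below the 4 saline libraries for Bst2 and Ifitm3, and such non-overlap was found in 1.7% of all genes. Without saline replicate 4 the median was -0.11. Ifi35 passed in this comparison when saline replicate 2 was left out (limma, adjusted p 0.0428), where 994 of all genes then passed. With array weights 8 of the 37 passed, a smaller share than over all genes, where 3602 of 13187 passed. Of these 8, Dtx3l and Eif2ak2 were higher with serum (0.46 and 0.52) and the others lower.

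**Figure D2:**
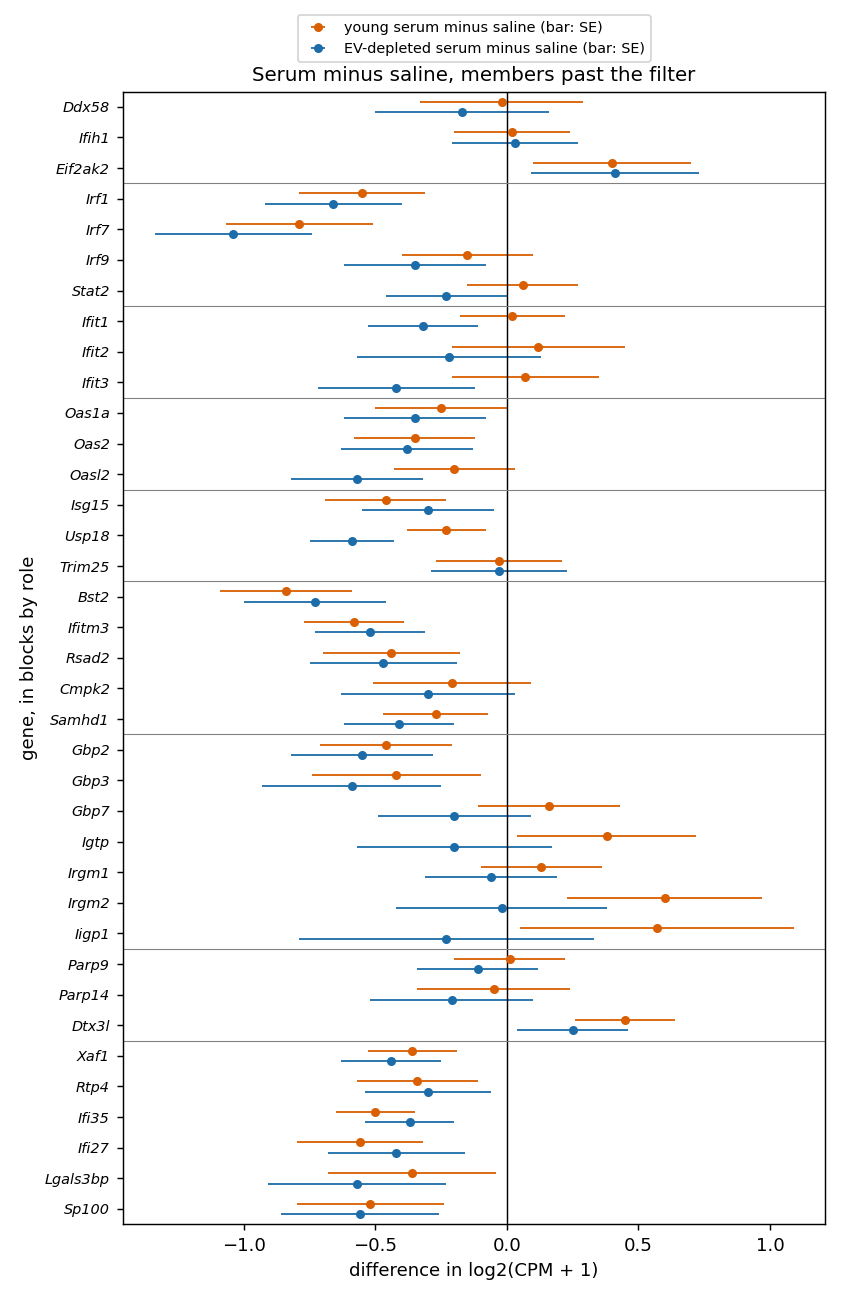
Difference of each serum group from saline in log2(CPM + 1) with its standard error (bars) for the 37 genes tested, in blocks by role; orange is young serum and blue EV-depleted serum. Most points lie left of 0, with Bst2 farthest left for young serum at -0.84 and Irf7 for EV-depleted serum at -1.04, and with Irgm2 and Iigp1 farthest right for young serum at 0.60 and 0.57.

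The sensors of viral nucleic acid act first in the pathway, together with an RNA-activated kinase. Ddx58 and Ifih1 encode the RNA helicases RIG-I and MDA5, which start interferon induction, and their mean levels were 3.68 ± 2.39 and 3.69 ± 1.28 CPM in the 4 saline libraries (SD), 3.30 ± 0.705 and 3.69 ± 0.875 CPM in the 4 libraries given young serum, and 2.97 ± 1.24 and 3.70 ± 0.862 CPM in the 3 given EV-depleted serum. Their differences from saline were between -0.17 and 0.03, inside their standard errors of 0.22 to 0.33. Those of Ddx58 without saline replicate 4 were 0.29 ± 0.23 and 0.14 ± 0.24 (SE), and those of Ifih1 both 0.18. Eif2ak2, the kinase PKR that halts translation on binding double-stranded RNA, averaged 2.06 ± 1.15, 2.84 ± 0.265 and 3.19 ± 2.20 CPM in the same order, with differences of 0.40 ± 0.30 and 0.41 ± 0.32 (SE), and 5.72 CPM in EV-depleted replicate 4; without saline replicate 4 they were 0.62 and 0.63. Dhx58, the helicase LGP2 that modulates both sensors, was at 0.389 to 2.82 CPM, and Zbp1, a sensor of Z-form nucleic acid linked to cell death, at 0.208 to 1.84 CPM. For these low genes an exact two-sided permutation test over libraries gave no p under 0.114 in 8 tests, with a Benjamini-Hochberg value of at least 0.456; the smallest p the designs allow is 0.0286 for 4 against 4 libraries and 0.0571 for 3 against 4. Both were highest in saline replicate 4.

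Irf7, the factor that amplifies type I interferon production, had the largest difference of the set. It stood at 6.17, 5.46, 10.8 and 4.93 CPM in saline replicates 2, 3, 4 and 6, at 3.03, 3.54, 6.05 and 1.81 CPM in young serum replicates 1 to 4, and at 2.6, 2.54 and 2.90 CPM in EV-depleted replicates 2 to 4. The 3 EV-depleted libraries were tightly grouped below every saline library, whereas young serum replicate 3 lay inside the saline range. The difference was -0.79 ± 0.28 with young serum (fold 0.578, adjusted p = 0.180 by limma) and -1.04 ± 0.30 with EV-depleted serum (fold 0.487, adjusted p = 0.370 by limma), where folds are on the CPM + 1 scale and errors are SE. Without saline replicate 4 these were -0.57 and -0.82. The exons of Irf7 share 45 bases with Phrf1 on the other strand, and the sources used here do not say whether reads were counted by strand.

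Irf1, a factor induced by both interferon types that binds ISRE-like sites, stood at 8.78, 8.41, 20 and 11.5 CPM in saline, 6.49, 8.20, 10 and 5.81 CPM in young serum, and 7.43, 6.75 and 6.53 CPM in EV-depleted serum. Saline replicate 4 was the highest, and the EV-depleted libraries lay below all saline libraries. The differences were -0.55 ± 0.24 and -0.66 ± 0.26 (adjusted p = 0.219 and 0.404 by limma), and -0.30 and -0.41 without saline replicate 4. Gm17334, on the other strand, shares 135 exonic bases with Irf1.

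Irf9 and Stat2, which encode parts of the type I complex, differed less. Irf9 was at 5.16, 4.86, 8.97 and 7.16 CPM in saline, 4.87, 6.40, 8.97 and 3.53 CPM in young serum, and 4.59, 4.03 and 5.88 CPM in EV-depleted serum. Stat2 was at 4.27, 4.15, 8.02 and 4.68 CPM, at 5.79, 5.77, 6.00 and 4.14 CPM, and at 3.69, 3.37 and 5.85 CPM in the same order. For both genes the 3 groups overlapped. Rnf31, on the same strand, shares 123 exonic bases with Irf9. The differences of Irf9 were -0.15 ± 0.25 and -0.35 ± 0.27, and those of Stat2 were 0.06 ± 0.21 and -0.23 ± 0.23. The sign with young serum depended on single libraries: Irf9 was at 0.04 without young serum replicate 4, and Stat2 at -0.01 and -0.02 without saline replicates 2 and 3.

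**Figure D3:**
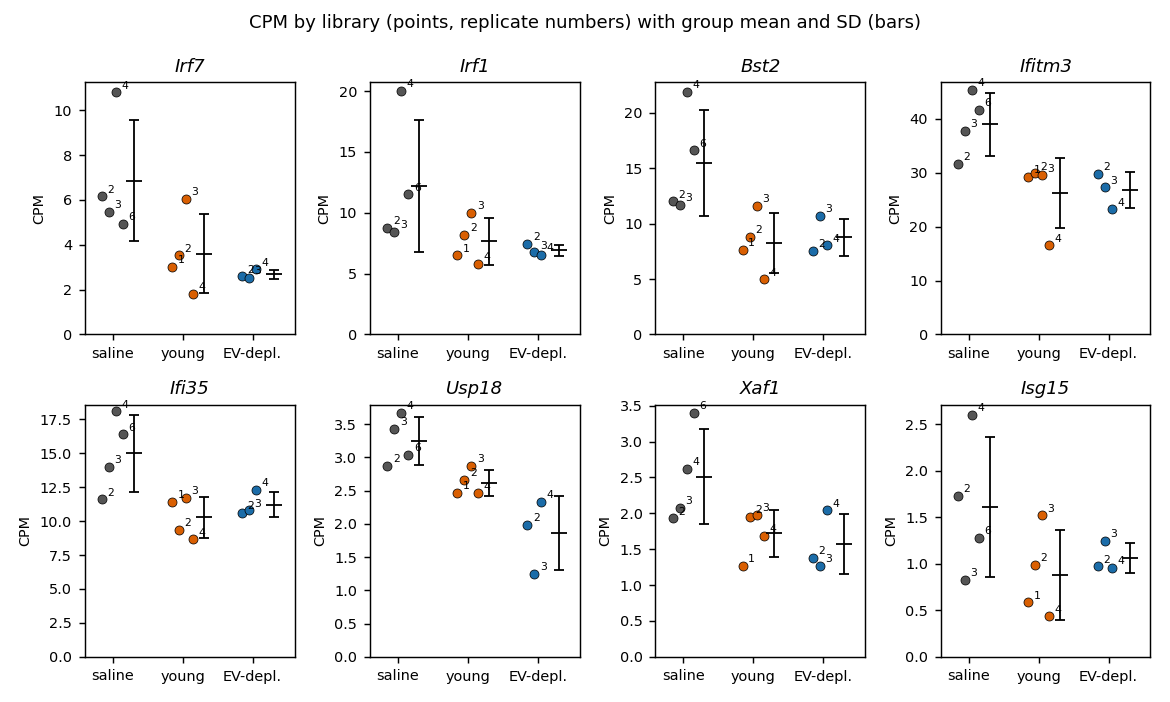
CPM of 8 genes in each library (points with replicate numbers; grey saline, orange young serum, blue EV-depleted serum), with the group mean and SD as bars; the axes start at 0. For Bst2 and Ifitm3 both serum groups lie below all saline points, and for Irf7, Irf1 and Usp18 the EV-depleted group does.

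Among effectors at membranes and on nucleotides, all 5 were lower than in saline with either serum. Bst2 encodes tetherin, which holds budding virus at the cell surface. It was at 12, 11.7, 21.9 and 16.6 CPM in saline, 7.63, 8.81, 11.6 and 4.98 CPM in young serum, and 7.54, 10.7 and 8.05 CPM in EV-depleted serum. Each serum library was below each saline library, by as little as 11.6 against 11.7 CPM. The differences were -0.84 ± 0.25 and -0.73 ± 0.27 (folds 0.557 and 0.603, adjusted p = 0.180 and 0.404 by limma), and -0.67 and -0.56 without saline replicate 4.

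Ifitm3, which blocks fusion of virus with endosomal membranes, had the highest level of the set per exon length, 57.6 CPM per exonic kilobase in saline. It stood at 31.6, 37.7, 45.3 and 41.6 CPM in saline, 29.2, 29.9, 29.5 and 16.5 CPM in young serum, and 29.8, 27.3 and 23.2 CPM in EV-depleted serum. Young serum replicates 1 to 3 were within 1 CPM of each other just below the lowest saline library, and replicate 4 was far below them. The differences were -0.58 ± 0.19 and -0.52 ± 0.21 (folds 0.669 and 0.696, adjusted p = 0.180 and 0.404 by limma).

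The other effectors of this group had wider spreads. Rsad2 encodes viperin, which makes a chain-terminating nucleotide, and Cmpk2 the mitochondrial kinase that neighbours it on chromosome 12. Rsad2 differed by -0.44 ± 0.26 and -0.47 ± 0.28, and Cmpk2 by -0.21 ± 0.30 and -0.30 ± 0.33. Samhd1, which depletes deoxynucleotides, averaged 32.9 ± 12.2 CPM in saline, 26.0 ± 2.38 CPM with young serum and 23.5 ± 1.16 CPM with EV-depleted serum (SD). Its differences were -0.27 ± 0.20 and -0.41 ± 0.21, and its highest library was saline replicate 4 at 50.8 CPM. Without that library they were -0.05 and -0.19, and those of Cmpk2 were -0.03 and -0.13.

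The ISG15 group holds the ubiquitin-like modifier, its protease and a ligase. Isg15 was low, at 1.73, 0.831, 2.6 and 1.28 CPM in saline, 0.586, 0.989, 1.52 and 0.434 CPM in young serum, and 0.972, 1.25 and 0.958 CPM in EV-depleted serum. The groups overlapped, with differences of -0.46 ± 0.23 and -0.30 ± 0.25 (adjusted p = 0.256 and 0.565 by limma), and -0.29 and -0.13 without saline replicate 4. Trim25, the ligase that acts on RIG-I, differed by -0.03 from saline in both, against standard errors of 0.24 and 0.26; without saline replicate 4 both were 0.20.

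Usp18 removes ISG15 from proteins and restrains the type I receptor. It was at 2.87, 3.43, 3.67 and 3.04 CPM in saline, 2.47, 2.66, 2.87 and 2.46 CPM in young serum, and 1.99, 1.25 and 2.33 CPM in EV-depleted serum. The EV-depleted libraries were the 3 lowest of all 11, below those given intact young serum. The difference from saline was -0.23 ± 0.15 with young serum and -0.59 ± 0.16 with EV-depleted serum (adjusted p = 0.359 and 0.350 by limma). Gm44148, on the other strand, shares 124 exonic bases with Usp18.

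The IFIT proteins, which bind viral RNA at its 5′ end, and the OAS proteins, which make a second messenger that activates RNase L, were at low levels. Ifit1 stood at 2.64, 1.69, 2.37 and 2.66 CPM in saline, 2.11, 2.11, 3.86 and 1.69 CPM in young serum, and 1.43, 1.5 and 2.09 CPM in EV-depleted serum. Ifit3 stood at 4.75, 2.41, 5.57 and 3.79 CPM, at 3.33, 4.23, 8.04 and 2.69 CPM, and at 2.79, 2.24 and 3.21 CPM in the same order. Young serum replicate 3 was the highest library for both, and the groups overlapped. With Ifit2 the 3 genes differed by 0.02 to 0.12 with young serum and by -0.42 to -0.22 with EV-depleted serum. Without young serum replicate 3 the young serum values of Ifit1, Ifit2 and Ifit3 were -0.16, -0.03 and -0.19, so their sign rested on that library. Ifit3 has a near-identical copy, Ifit3b, and the sources used here do not say how shared reads were counted.

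Of the OAS group, Oasl2 stood at 2.75, 2.35, 4.61 and 2.24 CPM in saline, 2.47, 2.80, 3.36 and 1.28 CPM in young serum, and 1.60, 1.27 and 2.02 CPM in EV-depleted serum. The EV-depleted libraries lay below all saline libraries, with a difference of -0.57 ± 0.25 (adjusted p = 0.412 by limma), and the young serum libraries did not, with -0.20 ± 0.23. Leaving out saline replicate 4 gave -0.40 and -0.02. Oas1a, which has close paralogs in its cluster, averaged 1.30 ± 0.715, 0.925 ± 0.564 and 0.765 ± 0.283 CPM (SD) in the groups in the same order. Oas2 averaged 1.62 ± 0.722, 1.03 ± 0.389 and 0.997 ± 0.466 CPM in that order. Oas1a differed by -0.25 and -0.35 and Oas2 by -0.35 and -0.38, and without saline replicate 4 these were -0.06 and -0.16 for Oas1a and -0.20 and -0.24 for Oas2.

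The interferon-gamma-inducible GTPases defend against vacuolar microbes and fall into guanylate-binding proteins (Gbp2, Gbp3 and Gbp7) and immunity-related GTPases (Igtp, Irgm1, Irgm2 and Iigp1). Iigp1 was at 6.97, 6.07, 6.22 and 9.04 CPM in saline, 7.59, 11.6, 42.2 and 3.27 CPM in young serum, and 5.09, 6.73 and 5.80 CPM in EV-depleted serum. Irgm2 was at 16.3, 14.7, 16.4 and 13.4 CPM, at 20, 18.1, 64.5 and 12.7 CPM, and at 14.8, 14.7 and 15.3 CPM in the same order. Igtp was at 14.7, 13.7, 13.7 and 13.6 CPM, at 12.9, 15.5, 48.6 and 11.6 CPM, and at 13.4, 11.9 and 11 CPM. In all 3 genes young serum replicate 3 stood far above the other 10 libraries, while replicate 4 of the same group was at the low end. Igtp and Irgm2 share 162 exonic bases on the same strand, so some reads could count for either.

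Irgm1, named here after its values were seen, was at 22.6 CPM in that library and at 8.46 to 13.5 CPM in the other 10. Because of this library the young serum group had SDs of 17.7, 24.0, 17.7 and 6.16 CPM for Iigp1, Irgm2, Igtp and Irgm1, where saline had 1.37, 1.42, 0.515 and 1.72. With all libraries the young serum minus saline differences were 0.57 ± 0.52, 0.60 ± 0.37, 0.38 ± 0.34 and 0.13 ± 0.23 in that order. Without young serum replicate 3 they were -0.05 ± 0.31, 0.13 ± 0.16, -0.07 ± 0.14 and -0.12 ± 0.17. Without that library, none of the 4 differed from saline by more than its standard error.

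The 3 guanylate-binding protein genes of the set were not highest in that library. Gbp2 averaged 8.66 ± 3.06 CPM in saline, 5.99 ± 1.93 CPM with young serum and 5.39 ± 0.556 CPM with EV-depleted serum (SD), and Gbp3 4.62 ± 2.02, 3.20 ± 1.48 and 2.57 ± 0.676. Their differences were -0.46 ± 0.25 and -0.42 ± 0.32 with young serum, and -0.55 ± 0.27 and -0.59 ± 0.34 with EV-depleted serum. Gbp7 differed by 0.16 ± 0.27 and -0.20 ± 0.29. Its exons share 637 bases on the same strand with the processed pseudogene Gm43802, so some reads could count for either. The values with young and EV-depleted serum without saline replicate 4 were -0.29 and -0.38 for Gbp2, -0.31 and -0.48 for Gbp3 and 0.30 and -0.06 for Gbp7, and without young serum replicate 3 the young serum value of Gbp7 was 0.03. In young serum replicate 3 these genes stood at 6.83, 4.20 and 8.06 CPM, inside the range of the other libraries.

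**Figure D4:**
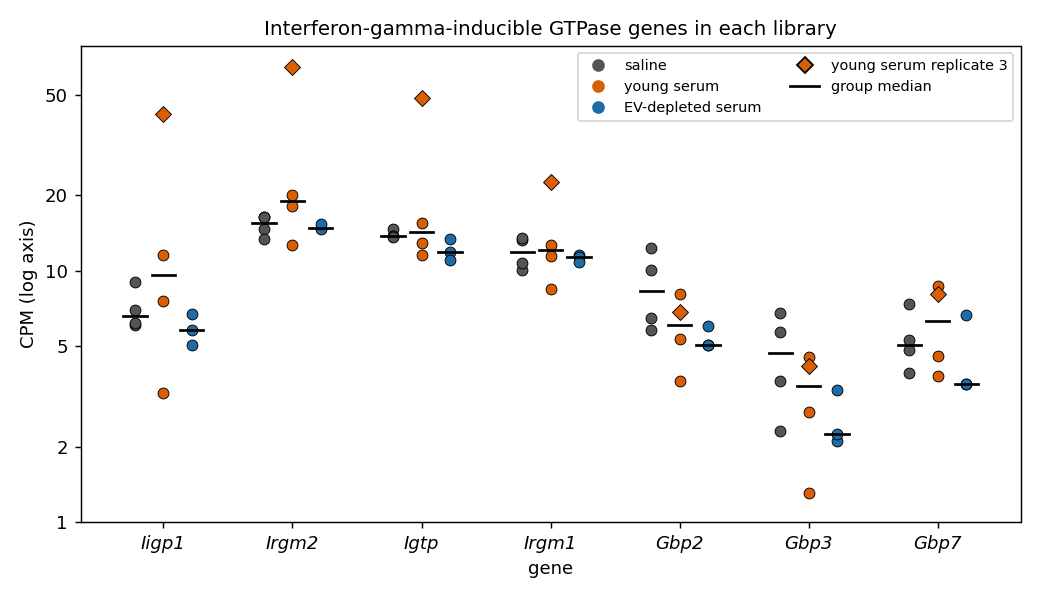
CPM on a log axis of the 7 GTPase genes in each library (grey saline, orange young serum, blue EV-depleted serum; the diamond is young serum replicate 3; the line is the group median). The diamond is at 42.2, 64.5, 48.6 and 22.6 CPM for Iigp1, Irgm2, Igtp and Irgm1, and within the other points for Gbp2, Gbp3 and Gbp7.

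Young serum replicate 3 was then compared with the other libraries across all genes, a choice made after its values were seen. Among 9165 genes at 5 CPM or more in it, ranked by the ratio to the next highest library, Iigp1 came 2nd with 3.63, Irgm2 5th with 3.23, Igtp 6th with 3.13, Irgm1 8th with 1.68 and Ifit3 12th with 1.44. The 1st and 4th places were held by the predicted GTPase genes Gm12185 (6.46 CPM against at most 1.73) and Gm4841 (129 CPM against at most 37.2), and the 9th and 10th by Gbp6 and Gbp10, a near-identical pair of guanylate-binding protein genes. The others of the first 12 were Myh3, Myh8 and Tnnt2, contractile genes of developing muscle; Myh3, the embryonic myosin heavy chain, was at 55.3 CPM against at most 15.7.

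Against the median of the other 3 young serum libraries, on the CPM + 1 scale, 14 of the 37 genes (37.8%) were more than 1.5 times higher in replicate 3, and 1.9% of all genes were. The 11 macrophage markers tested had a median ratio of 1.01 there, with 0 above 1.5, and the 5 interferon receptor genes a median of 1.0. By the same ratio, the 8 adipocyte markers had a median of 1.51, with 4 above 1.5. The 2 T and NK cell markers tested had a median of 1.59, with 1 above 1.5. The summed T and NK cell markers were at 4.07 CPM in that library against 1.53 to 2.23 in the other young serum libraries. In saline they summed to 2.57 to 43.5 CPM. The summed adipocyte markers were at 498 CPM against 248 to 447, and at 376 to 6134 CPM in saline. Both saline maxima were in replicate 4, where Iigp1, Irgm2 and Igtp stood at 6.22, 16.4 and 13.7 CPM. Ratios above 1.5 in young serum replicate 3 were not limited to interferon-stimulated genes. The highest was 1.78 among the adipocyte markers, 2.02 among the T and NK cell markers tested and 5.03 among the 37 genes. The part of these cells in the high values was not tested. In bulk muscle, more cells of a type and more RNA per cell cannot be told apart.

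The PARP9 and DTX3L proteins form a ubiquitin ligase in the interferon and DNA damage responses. Dtx3l stood at 9.78, 7.21, 10.1 and 6.26 CPM in saline, 11.6, 12.4, 12 and 10.4 CPM in young serum, and 10, 7.24 and 13.4 CPM in EV-depleted serum. All young serum libraries were above all saline libraries, whereas the EV-depleted libraries ran from inside the saline range to above it. The differences were 0.45 ± 0.19 and 0.25 ± 0.21 (adjusted p = 0.208 and 0.564 by limma). Parp9, whose exons share 458 bases with Dtx3l on the other strand, differed by 0.01 ± 0.21 and -0.11 ± 0.23, and Parp14, a mono-ADP-ribosyltransferase, by -0.05 ± 0.29 and -0.21 ± 0.31. Parp9 was at 0.20 and 0.08 and Parp14 at 0.19 and 0.02 without saline replicate 4. Gm49730, on the same strand, shares 110 exonic bases with Parp14.

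The 6 remaining genes were all lower than in saline with either serum. Ifi35, which forms a complex with NMI, was at 11.6, 14.0, 18.1 and 16.4 CPM in saline, 11.4, 9.34, 11.7 and 8.66 CPM in young serum, and 10.6, 10.8 and 12.3 CPM in EV-depleted serum. Only the lowest saline library, replicate 2, came down into the serum range. The differences were -0.50 ± 0.15 and -0.37 ± 0.17 (adjusted p = 0.180 and 0.412 by limma). Gm11626, on the other strand, shares 290 exonic bases with Ifi35.

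Xaf1, a pro-apoptotic partner of XIAP, was at 1.93, 2.08, 2.62 and 3.40 CPM in saline, 1.27, 1.95, 1.98 and 1.69 CPM in young serum, and 1.38, 1.27 and 2.04 CPM in EV-depleted serum. Ifi27, a small mitochondrial and nuclear membrane protein gene, was at 27.1, 32.1, 70.7 and 42.8 CPM, at 28.4, 26.4, 31.9 and 22.7 CPM, and at 27.8, 29.5 and 32.4 CPM in the same order. Both groups of serum libraries overlapped saline in both genes. Xaf1 differed by -0.36 ± 0.17 and -0.44 ± 0.19, and Ifi27 by -0.56 ± 0.24 and -0.42 ± 0.26; without saline replicate 4 the values of Ifi27 were -0.29 and -0.16.

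Lgals3bp, a secreted scavenger-receptor-domain glycoprotein, and Sp100, a nuclear body protein, were set largely by 1 library in saline. Saline replicate 4 was at 42.6 CPM for Lgals3bp, with the other saline libraries at 14.1 to 15, and at 21.7 CPM for Sp100, with the others at 7.05 to 9.68. Their differences were -0.36 ± 0.32 and -0.57 ± 0.34 for Lgals3bp and -0.52 ± 0.28 and -0.56 ± 0.30 for Sp100. Without that library these were 0.01 and -0.19 for Lgals3bp and -0.20 and -0.24 for Sp100. Rtp4, a chaperone of receptors, differed by -0.34 ± 0.23 and -0.30 ± 0.24, and by -0.21 and -0.17 without it. On the same strand, Rtp4 shares 296 exonic bases with Gm45338 and Sp100 shares 104 with n-R5s215.

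Intact and EV-depleted young serum were compared directly, without the saline libraries, which enter only through the pooled spread. Of the 37 genes, 29 were higher with intact serum and 8 lower, with a median of 0.14 against -0.00 over all genes. None passed limma's test (0 of 37, adjusted p = 1.0 for all; 0.0% of all genes), and 1, Usp18, had an unadjusted p under 0.05 and was higher, against 0.478% of all genes higher and 1.75% lower. Usp18 was also the 1 gene with groups that did not overlap, as against 1.96% of all genes higher and 4.16% lower, with a difference of 0.36 ± 0.16. The largest differences were those of Iigp1 (0.80 ± 0.56), Irgm2 (0.62 ± 0.40) and Igtp (0.58 ± 0.37), and Ifit3 (0.49 ± 0.30) came next; Oasl2 (0.37 ± 0.25) and Ifit1 (0.33 ± 0.21) were also higher with intact serum. Each of these 6 lies within 2 standard errors of 0. Without young serum replicate 3 these 6 were 0.18, 0.15, 0.13, 0.23, 0.25 and 0.16 in the order given.

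Within groups, these genes varied more than others did in young serum. The median SD of log2(CPM + 1) over the 37 genes was 0.402 in saline, 0.390 with young serum and 0.230 with EV-depleted serum, and over all genes 0.305, 0.149 and 0.223. The mean of the 37 genes, relative to each gene's mean over all libraries, was 0.59 in saline replicate 4 and -0.09 to 0.06 in the other saline libraries. In young serum it was -0.14, 0.12, 0.41 and -0.44 in replicates 1 to 4, so this group held both the second highest and the lowest of the 11 libraries. In EV-depleted serum it was -0.20, -0.33 and -0.01.

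Some markers of other cells also differed between the groups. All 11 macrophage markers tested were lower than in saline with young serum (median -0.77) and with EV-depleted serum (median -0.89). Their summed level was 130 to 356 CPM in saline, 54.6 to 161 CPM with young serum and 74.0 to 127 CPM with EV-depleted serum. The lowest sum was in young serum replicate 4, the library lowest for 17 of the 39 genes. As means relative to each gene's mean, the 37 genes and the macrophage markers were at -0.44 and -0.93 there, and at 0.59 and 1.39 in saline replicate 4. They had opposite signs in other libraries, such as young serum replicates 1 (-0.14 and 0.26) and 3 (0.41 and -0.17). When saline replicate 4 was left out, 10 of 11 macrophage markers were lower with young serum (median -0.41) and 11 of 11 with EV-depleted serum (median -0.56). All 8 adipocyte markers were lower too, with medians of -1.40 and -1.45, but saline replicate 4 carried most of this: without it 5 and 7 of 8 were lower, with medians of -0.26 and -0.45, and the saline sums of 376 to 625 CPM overlapped the 248 to 521 CPM with serum. The B and plasma cell markers summed to 252 to 625 CPM in saline against 124 to 188 with serum. The 11 endothelial markers differed by a median of -0.22 in both comparisons. Of the 8 fibro-adipogenic progenitor markers, 7 were lower with young serum and 8 with EV-depleted serum, with a median of -0.36 in both. Without saline replicate 4 these medians were -0.18 and -0.34. The 2 T and NK cell markers tested were lower with both sera (medians -0.97 and -0.94, and -0.44 and -0.41 without saline replicate 4). Of 2 dendritic cell markers tested, 1 was lower and 1 higher with each serum. Of the neutrophil list 3 of 8 genes were analysed, and these summed to at most 1.71 CPM in any library; no marker analysed was at 0 in every library. The part of these cells in the lower values of the interferon-stimulated genes was not tested.

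Other genes of the pathway were taken from fixed lists. Of the 6 interferon receptor genes 5 were tested, and 0 passed limma's test in any comparison; Ifnar2 averaged 8.76 ± 6.21, 4.73 ± 0.708 and 4.55 ± 0.636 CPM (SD) in saline, young serum and EV-depleted serum, with saline replicate 4 at 18 CPM and the other saline libraries at 4.77 to 7.01. Its differences were -0.60 and -0.64, and -0.22 and -0.26 without that library. Of the kinases and STAT genes 6 of 7 were tested and 0 passed, with 5 higher and 1 lower with young serum; Jak2 averaged 30.1 ± 7.89, 48.3 ± 10.1 and 43.9 ± 13.3 CPM. The 14 negative regulators gave 0 calls, with Socs1, a suppressor of JAK kinases, at 3.28 ± 2.68, 0.780 ± 0.290 and 1.59 ± 1.40 CPM; its saline mean held 1 library, replicate 2, at 7.27 CPM, with the others at 1.71 to 2.39. Among 13 tested genes of nucleic acid sensing upstream of interferon, Traf3, an adaptor for interferon induction, averaged 18.2 ± 4.34, 30.4 ± 3.48 and 31.4 ± 2.63 CPM. Traf3 also did not pass (adjusted p = 0.180 and 0.299 by limma). With young serum its adjusted p by limma was 0.0488 without saline replicate 2, where 251 of all genes passed. Without saline replicate 4 it was 0.168 by limma. The interferon genes themselves are not analysed here.

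A further 63 interferon-stimulated genes were tested out of 92 on a list that does not hold the 39. With young serum 46 were lower and 17 higher (median -0.17, against -0.02 over all genes), and with EV-depleted serum 44 and 19 (median -0.33, against -0.00); 0 passed limma's test in either. Without saline replicate 4, 33 were lower and 30 higher with young serum (median -0.01, against 0.07 over all genes), and 38 and 25 with EV-depleted serum (median -0.10, against 0.08). At an unadjusted p under 0.05, 14 were lower and 3 higher with young serum, where all genes gave 11.4% and 10.5%, and 12 and 1 with EV-depleted serum, where all genes gave 5.59% and 6.49%. Those of smallest p with young serum included Ifitm1, at 1.23 ± 0.333, 0.360 ± 0.127 and 0.708 ± 0.279 CPM, and the proteasome activator genes Psme2, at 7.07 ± 2.15, 3.57 ± 0.743 and 4.0 ± 1.18 CPM, and Psme1, at 42.7 ± 11.5, 25.5 ± 5.49 and 27.4 ± 4.17 CPM (SD; saline, young serum and EV-depleted serum). Psme2 had an adjusted p of 0.0491 by limma with young serum when saline replicate 2 was left out, where 251 of all genes passed. It was 0.168 by limma when saline replicate 4 was left out.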

How the data were processed

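RNA of 11 libraries of aged mouse tibialis anterior was analysed from gene tables. The deposited CPM table holds values that the authors scaled to 1000000 per library, with 0.0001 then added to every value, which the values themselves show; the deposited TPM values are CPM divided by the genomic span of each gene (coefficient of variation of the constant 0.002224%) and were not tested. FastQC, STAR, DESeq2 and mm10 appear in the submitters' processing notes without versions or roles; counting and strand settings are not given in the sources used here. Of the low values, 78.4% to 81.7% were whole reads within 0.1 reads, too few to rebuild counts, so no count model was fitted.

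limma 3.58.1 (R 4.3.3) was fitted to log2(CPM + 1) in all 11 libraries as 3 groups, with eBayes and a variance trend, two-sided, adjusted by Benjamini-Hochberg at 0.05 over 13187 genes that reached 1 CPM in 3 or more libraries (5082 did not); the pseudocount of 1 understates changes of low genes. The script was tested on simulated data. Every member is named; values per library are given for the 4 transcription factors, Isg15 and up to 8 genes of smallest unadjusted p in each comparison. Members and lists were chosen with earlier results of these data known. Exonic lengths and overlaps come from GENCODE M21 on mm10. The alternatives were other pseudocounts, filters, scalings and weights, a replicate block, and libraries left out.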

Additional observations from a re-analysis of the deposited data

Results flagged for a closer look

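In 8 cases 1 library stood far from the other 3 of its group, by the gap to its nearest neighbour relative to the whole range. In saline, replicate 4 was high for Dhx58 at 2.82 CPM (others 0.553 to 0.709), for Lgals3bp at 42.6 CPM (14.1 to 15) and for Stat2 at 8.02 CPM (4.15 to 4.68). Saline replicate 2 was high for Igtp at 14.7 CPM, although the others were at 13.6 to 13.7. In young serum, replicate 3 was high for Igtp at 48.6 CPM (11.6 to 15.5) and for Irgm2 at 64.5 CPM (12.7 to 20). Young serum replicate 4 was low for Ifitm3 at 16.5 CPM (29.2 to 29.9) and for Stat2 at 4.14 CPM (5.77 to 6.00). Chance gives such a gap in about 1 of 20 groups if values are normally distributed, which was not tested for these CPM values. In each of the 2 groups 4 of the 39 genes (10.3%) had one, against 12.3% of all genes tested in saline and 4.94% in young serum. The EV-depleted group, with 3 libraries, was not examined in this way.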

How the results depend on the processing

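No gene of the set passed limma's test in any comparison under any alternative other than array weights and, for both sera against saline, the omission of saline replicate 2. With array weights (saline replicate 4 at 0.208, EV-depleted replicate 2 at 4.19) 3441, 1794, 24 and 3602 of all genes passed for young serum, EV-depleted serum, young against EV-depleted serum, and both sera; 4, 3, 0 and 8 of the set did, 6 of the set had an unadjusted p under 0.05 for young against EV-depleted serum, and the medians for young serum and EV-depleted serum were 0.07 and -0.21. Leaving out 1 library at a time gave 0 to 251, 0 to 5, 0 to 0 and 0 to 994 genes called, with 251, 5 and 994 each reached without saline replicate 2, and 0, 0, 0 and 0 to 1 of the set; at an unadjusted p under 0.05 the set's counts were 4 to 9, 3 to 11, 0 to 3 and 7 to 12, and its medians -0.32 to -0.02, -0.45 to -0.20, 0.03 to 0.24 and -0.36 to -0.11. The count for EV-depleted serum was 3 without saline replicate 4, 4 without EV-depleted replicate 2 and 5 without EV-depleted replicate 3 or 4, that for young serum 4 without young serum replicate 1, and that for young against EV-depleted serum 3 without young serum replicate 4. The share of all genes at an unadjusted p under 0.05 is not given here for any alternative. The set's counts under the alternatives therefore cannot be set against other genes.
With a replicate block the set's counts at an unadjusted p under 0.05 were 4, 3, 0 and 5, and 6 of all genes were called for EV-depleted serum; same-numbered libraries correlated at -0.277 to 0.3, so the numbers were not shown to pair the libraries. Without saline replicates 4 and 6 these counts were 1, 2 and 2 for the 3 saline comparisons, with 2 and 1 of all genes called for EV-depleted serum and both sera, and medians of 0.01, -0.15 and -0.07. With a mean of at least 5 CPM, EV-depleted serum gave 3 genes called and 4 of the set at an unadjusted p under 0.05, and young against EV-depleted serum gave 0. Without saline replicate 4 and young serum replicate 3, an alternative chosen after seeing the data, these were 1, 4 and 0, and 0 genes were called for both sera. The count for young against EV-depleted serum was 2 after quantile normalization and 0 with only the groups compared. For both sera 0 genes were called without a filter, with median-ratio scaling, with quantile normalization and without the trend; the fit of only the groups compared uses the same libraries there and was not run.
Signs changed for genes near 0, and single libraries left out gave -0.34 to 0.04 for Irf9 and -0.02 to 0.25 for Stat2 with young serum, -0.02 to 0.21 for Irf1 between the sera, and -0.18 to 0.10 for Stat2 with both sera. The young serum difference of Irf9 was 0.14 with array weights, 0.04 without young serum replicate 4 and 0.15 without both saline replicates, and that of Stat2 was -0.00 with the replicate block, -0.01 without saline replicate 2 and -0.02 without saline replicate 3. For both sera, Irf9 was at 0.00 with array weights and 0.05 without both saline replicates, and Stat2 at 0.06 with array weights, 0.10 without saline replicate 4, 0.14 without both saline replicates and 0.08 without saline replicate 4 and young serum replicate 3. Irf1 was at -0.02 for young against EV-depleted serum without young serum replicate 3, alone or with saline replicate 4. The cause of these shifts was not tested beyond the fewer libraries or genes that each alternative uses. Depth limits genes near 1 CPM such as Isg15, Oas2, Dhx58 and Zbp1.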
